A study of Mus musculus with 6 samples.

Results

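The genes described here are 47 named genes of the germline, of meiosis and of the piRNA pathway, read in mouse embryonic stem cells of 2 genotypes. They were matched by symbol in a table of 55401 genes: 13 belong to the meiotic chromosome, 17 to the piRNA pathway and the Tudor-domain proteins, and 17 are other germline genes. All 47 were in the table, and 44 of them had enough reads to be among the 17325 genes tested. The list was drawn up with the difference between the genotypes already known, so the changes of its members are given below as a description and carry no test of the list. Unmodified cells (WT) and Cdh1-/- cells, both of the V6.5 line, gave 3 libraries each, labelled A, B and C. V6.5 is an embryonic stem cell line from a cross of inbred mouse strains, and Cdh1 encodes E-cadherin, the adhesion molecule that holds these cells together in colonies. The labels name no treatment, passage, culture medium or number of clones, and do not say whether the libraries of a genotype came from separate cultures. The p-values then measure only the spread between these libraries, which may be technical.

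Germline genes work in the cells that become sperm and eggs. In meiosis, cohesin and axis proteins organise the chromosomes, the synaptonemal complex zips homologues together, and recombinases repair programmed breaks. In the piRNA pathway, PIWI proteins loaded with small RNAs silence transposons, and Tudor-domain proteins, helicases and cofactors assemble the particles in which this happens. In embryonic stem cells many of these genes are held at a low level by DNA methylation and by a variant Polycomb complex with the DNA-binding proteins E2F6 and MGA, which read an E2F-type sequence and an E-box.

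Promoter sequences were taken from RefSeq (GRCm38.p6), as windows of 250 bases before to 50 bases after a transcript start. A window was found for 41 of the 47 genes, and none was used for Dnd1, Piwil2, Spo11, Tdrd6, Tex11 and Tex15. Each window was searched for CACGTG, an E-box that reads the same on both strands, and for TCCCGC, an E2F-type word searched on both strands (GCGGGA on the other). The words can share at most 1 base, and each was counted on its own. The 5 sequences that follow are the 250 bases before the start, 5′ to 3′ on the gene's strand, with the words in capitals. They show both words, the E-box alone or neither, in genes that were lower in the knockout and in 1 gene that did not pass the test. Windows with the E2F-type word alone, such as that of Smc1b, were also found and are not shown. Hormad1 (chr3:95559427-95559676, plus strand) has an E2F-type word and 2 E-boxes. Mael (chr1:166238745-166238994, minus strand) has 1 of each in these bases and a second E2F-type word after the start. Fkbp6 (chr5:135350045-135350294, minus strand) has 2 E-boxes. Sycp3 (chr10:88459337-88459586, plus strand), whose level did not pass the test, has the same words as Hormad1. Tdrd12 (chr7:35537745-35537994, minus strand), among the genes with the largest falls, has neither.
Hormad1: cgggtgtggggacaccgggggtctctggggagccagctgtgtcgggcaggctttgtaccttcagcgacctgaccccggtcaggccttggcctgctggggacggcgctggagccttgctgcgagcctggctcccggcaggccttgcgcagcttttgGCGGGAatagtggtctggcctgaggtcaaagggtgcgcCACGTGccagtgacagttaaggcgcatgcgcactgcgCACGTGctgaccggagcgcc
Mael: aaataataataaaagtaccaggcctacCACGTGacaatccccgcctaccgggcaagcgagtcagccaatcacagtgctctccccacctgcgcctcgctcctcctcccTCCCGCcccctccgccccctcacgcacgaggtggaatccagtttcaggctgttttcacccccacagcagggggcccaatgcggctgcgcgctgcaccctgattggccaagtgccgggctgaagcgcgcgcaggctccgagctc
Fkbp6: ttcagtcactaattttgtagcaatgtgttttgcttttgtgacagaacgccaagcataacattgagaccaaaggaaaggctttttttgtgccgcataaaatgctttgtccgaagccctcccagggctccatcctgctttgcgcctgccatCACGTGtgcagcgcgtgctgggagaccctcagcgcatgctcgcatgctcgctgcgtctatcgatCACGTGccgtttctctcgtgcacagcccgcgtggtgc
Sycp3: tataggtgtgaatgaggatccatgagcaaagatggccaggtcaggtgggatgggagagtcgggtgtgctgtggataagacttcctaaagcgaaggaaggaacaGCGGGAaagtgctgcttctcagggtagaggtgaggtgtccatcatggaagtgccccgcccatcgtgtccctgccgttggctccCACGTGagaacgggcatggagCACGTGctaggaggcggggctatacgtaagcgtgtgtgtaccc
Tdrd12: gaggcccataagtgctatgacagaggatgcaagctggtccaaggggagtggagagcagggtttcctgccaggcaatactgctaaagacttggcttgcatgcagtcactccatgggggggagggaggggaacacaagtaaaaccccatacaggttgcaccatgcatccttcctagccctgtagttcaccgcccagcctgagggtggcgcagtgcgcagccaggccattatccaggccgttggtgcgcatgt

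An E-box stood in 14 of the 41 windows (34.1%), beside 7.63% of all 20539 windows and 10.1% of the 11747 windows of tested genes. The E2F-type word stood in 17 of 41 (41.5%), beside 23.9% of all windows and 36.1% of those of tested genes. At least 1 of the words was found in 24 of the 41 (58.5%), beside 29.1% and 42.3%. The groups of genes differed in which word they carried. Among the piRNA and Tudor genes, 7 of 14 windows held an E-box and 3 of 14 the E2F-type word. Among the meiotic chromosome genes the counts were 4 of 11 and 7 of 11, and among the other germline genes 3 of 16 and 7 of 16. The E-box was thus most frequent in the piRNA and Tudor group, and the E2F-type word in the meiotic chromosome group. The median number of CpG dinucleotides per window was 18 in the 41 windows, 20 in those of tested genes and 11 in all windows. Set against the measured change, the E2F-type word was in 10 of the 18 windows of genes called lower in the knockout and in 6 of the 22 of genes not called or not tested. The E-box went the other way, with 5 of 18 and 9 of 22. Over the whole table, 34.3% of the 732 windows of genes called lower held the E2F-type word, beside 36.1% of those of tested genes. The E-box stood in 11.2% of the 732, beside 10.1%. The listed genes were chosen with the contrast known. These are matches of letters and no test was run on them. The windows of Mei1 and Stra8 lie 12480 and 785 bases from the annotated gene start, so they may not be the start used in these cells.

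**Figure D1:**
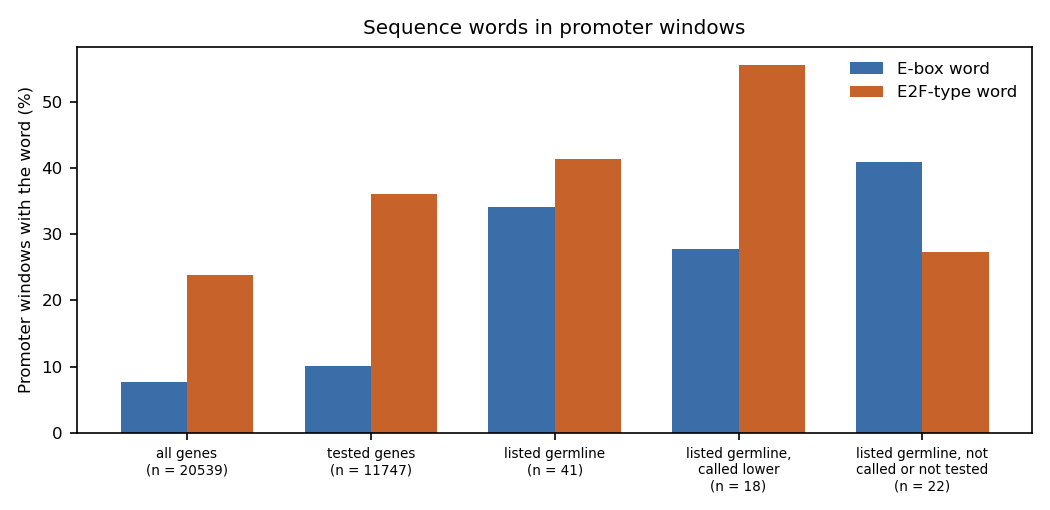
Share of promoter windows (%, vertical axis) that hold the E-box word (blue) or the E2F-type word (orange), in all genes, tested genes, the listed germline genes, those called lower and those not called or not tested; n is the number of windows. The E-box bar is at 34.1% in the listed genes, 10.1% in tested genes and 7.63% in all genes. Within the list it is lower in the genes called lower (27.8%) than in those not called or not tested (40.9%). The E2F-type bar is highest in the listed genes called lower (55.6%), from a list chosen with the contrast known.

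The libraries held between 18020719 and 23381942 counts. Cdh1 itself (chr8:106603351-106670246) was at 569, 571 and 537 CPM (the share of a library's counts scaled to a common size, with library sizes corrected for composition by TMM) in WT libraries A, B and C. In the knockout libraries it was at 168, 183 and 166 CPM. Every knockout library was far below every WT library, and 30.9% of the transcript level remained, a log2 fold change of -1.70 ± 0.08 (standard error, SE; adjusted p 2.9e-08 by edgeR's quasi-likelihood test). Across the genome 1317 genes were called higher and 990 lower at an adjusted p under 0.05, and the median log2 fold change of all tested genes was -0.01. Genes on chromosome 14 were shifted upward together, by 0.53 on the log2 scale relative to all genes, and those on chromosome 1 downward by 0.32; 4 of the germline genes lie there and are given with and without this shift. In bulk RNA, fewer cells of a type and less RNA per cell cannot be told apart. Low counts were mostly even numbers (78.1 to 83.1% of counts from 1 to 10), as when both mates of a pair are counted, so the floor for detection was set at 6 counts, between 0.262 and 0.332 CPM.

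In WT cells most of these genes were transcribed at a low but measurable level. Per kilobase of exon, 16 genes were at 10 CPM or more, 19 between 2 and 10, and 12 under 2. Stra8, the retinoic-acid-induced gatekeeper of meiotic entry, was highest at 79.7 CPM per kilobase, over 3 times the level of the next gene, the cohesin subunit Stag3 at 25.5. Tex14, Tex19.1, Rpl10l, Dmc1 and Ddx4 followed, between 20.3 and 23.6 CPM per kilobase. At the other end, Spo11, which makes the breaks that start meiotic recombination, had 2, 6 and 0 counts in WT and 0 in every knockout library, at or under the floor throughout. Summed over the 47 genes, the WT libraries held 1160 to 1292 CPM and the knockout libraries 955 to 1112 CPM. Stra8 made up a large and variable share of this; without it the sums were 1035 to 1113 CPM in WT and 770 to 905 CPM in the knockout, and the genotypes did not overlap with or without it.

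Of the 47 genes, 18 were called lower and 3 higher in the knockout. Among the 44 tested this is 40.9% lower, beside 5.71% of all tested genes, and 6.82% higher, beside 7.60%. In 23 of the 44 tested genes every knockout library lay below every WT library (15.0% of all tested genes), in 3 every knockout library lay above (15.7%), and in 18 the genotypes overlapped. The log2 fold change was below 0 in 37 of 44 (51.1% of all tested genes), with a median of -0.52 and a range from -3.30 to 0.87. Since the list was chosen on this contrast, nothing is read from these shares. Calls were spread over the levels: 2 of 12 genes under 2 CPM per kilobase in WT were called lower, 8 of 19 between 2 and 10, and 8 of 16 above. Outside chromosomes 1 and 14, 16 of 40 tested genes were called lower and 1 higher. In the 18 genes called lower the lowest of the 3 knockout libraries was A in 8 genes, B in 6 and C in 4.

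**Figure D2:**
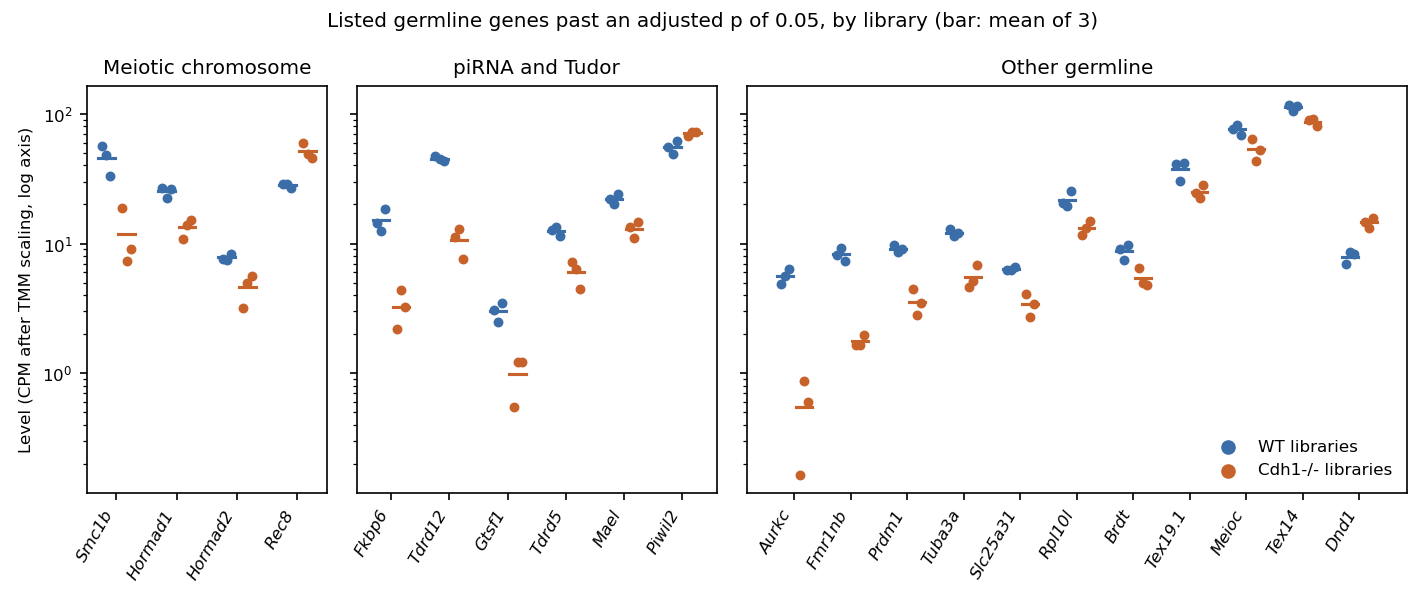
Level of each called germline gene in each library (CPM after TMM scaling, log axis), in 3 panels by gene group; blue points are WT, orange points Cdh1-/- libraries, and bars the mean of 3. In 18 genes all orange points lie below all blue points, and in Rec8, Piwil2 and Dnd1 they lie above.

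Among the meiotic chromosome genes, 3 of 13 were called lower, 1 was called higher and 8 were tested and not called. Of the 12 tested, 3 were called lower, beside 5.71% of all tested genes, and 1 (8.33%) higher, beside 7.60%. Over the 12 that were tested the log2 fold change had a median of -0.35, beside -0.01 for all tested genes. The largest fall was in a cohesin subunit, and the 2 HORMA-domain genes fell with it, while the synaptonemal complex genes and the recombinase Dmc1 did not pass edgeR's test.

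Smc1b, the meiosis-specific SMC subunit of cohesin (chr15:85064689-85131964), was at 56.7, 47.8 and 33.1 CPM in WT A, B and C and at 18.8, 7.34 and 9.13 CPM in the knockout. Knockout A was the highest of the knockout libraries and still lay below the lowest WT library. The mean went from 45.9 ± 11.9 to 11.8 ± 6.19 CPM (SD, n = 3), a log2 fold change of -1.98 ± 0.27 (SE). Rec8, the kleisin subunit of the same meiotic cohesin (chr14:55618037-55625395), went in the opposite direction. Its WT libraries were at 29.0, 28.9 and 27.0 CPM and its knockout libraries at 59.9, 48.7 and 45.7 CPM, with a log2 fold change of 0.86 ± 0.12. Every knockout library was above every WT library. Rec8 lies on chromosome 14, and with the chromosome's own median removed its log2 fold change was 0.33 and no longer passed. Stag3, the third meiotic cohesin subunit on the list, was at 129, 106 and 86.3 CPM in WT and 114, 63.8 and 64.3 CPM in the knockout. Its genotypes overlapped through knockout A, and its log2 fold change of -0.42 ± 0.19 did not pass; it passed with no filter (-0.39), and without knockout A at -0.74. Per kilobase of exon the WT levels of the 3 subunits were 25.5 CPM for Stag3, 12.9 for Rec8 and 11.3 for Smc1b, and in the knockout 19.15, 23.5 and 2.91.

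Hormad1 and Hormad2 encode HORMA-domain proteins of the chromosome axis that mark unsynapsed chromosomes. Hormad1 (chr3:95559677-95587671) was at 27.0, 22.5 and 26.5 CPM in WT and at 10.8, 13.98 and 15.2 CPM in the knockout. The genotypes were apart, with a log2 fold change of -0.93 ± 0.15. The paralog Hormad2 was lower in both genotypes, at 7.65, 7.53 and 8.35 CPM in WT and 3.21, 4.94 and 5.65 CPM in the knockout. Its libraries did not overlap either, with a log2 fold change of -0.77 ± 0.23, but the call was lost when any library other than knockout C was left out. A transcript of the gene Gm15529 is 97.9% identical to Hormad1 over 994 bases, so some reads of Hormad1 may have been assigned elsewhere or dropped.

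The 4 synaptonemal complex genes on the list did not pass in edgeR's test. Syce1, of the central element, was at 22.1, 20.01 and 25.4 CPM in WT and 16.7, 19.4 and 20.03 CPM in the knockout, which touch; its log2 fold change of -0.26 ± 0.14 did not pass. Sycp1, the transverse filament, had a log2 fold change of -0.13, and Sycp3, of the lateral element, one of -0.06. Of the exon bases of Sycp3, 52.2% overlap Chpt1, which runs the other way, and whether counting used strand is not given in the sources used here, so its level is uncertain. Sycp2, the partner of Sycp3, was at 9.63, 6.92 and 8.35 CPM in WT and 6.52, 3.36 and 5.25 CPM in the knockout. Its libraries were apart, but the log2 fold change of -0.73 ± 0.25 did not pass in edgeR's test. It passed in DESeq2, in limma-voom and with no filter (-0.70 to -0.79), and without knockout A at -0.95.

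Dmc1, the recombinase that pairs homologues in meiosis, was at 49.96, 50.8 and 40.6 CPM in WT and 50.5, 37.0 and 39.0 CPM in the knockout. The ranges overlapped, with a log2 fold change of -0.16 ± 0.13. Tex11, an X-linked gene of meiotic recombination, and Mei1, needed for meiotic breaks, had log2 fold changes of -0.29 and -0.52 that did not pass. Mei1 was at 6.08 CPM in knockout A and at 3.15 and 2.52 CPM in B and C; without knockout A its log2 fold change was -0.98 and passed. Knockout A was the highest knockout library for 8 of the 12 tested genes of the group (Smc1b, Rec8, Stag3, Sycp1, Sycp2, Sycp3, Mei1 and Dmc1) and the lowest for the other 4 (Hormad1, Hormad2, Syce1 and Tex11). The summed level of the meiotic chromosome genes was 350 CPM there beside 257 and 267 CPM in B and C. The WT sums were 401, 357 and 342 CPM, so the genotypes overlapped through knockout A.

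In the piRNA and Tudor group, 5 of 17 genes were called lower, 1 was called higher and 10 were tested and not called. Of those tested, 31.25% were called lower and 6.25% higher, beside 5.71% and 7.60% of all tested genes. Over the 16 tested the median log2 fold change was -0.44. The summed level was 352 to 387 CPM in WT and 289 to 315 CPM in the knockout, with no overlap. The largest falls were in Fkbp6 and Tdrd12, whose products act in the cycle that makes piRNAs from cleaved transposon transcripts. The helicases Ddx4 and Mov10l1 did not pass.

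Fkbp6, a co-chaperone needed to load piRNAs (chr5:135291704-135350044), was at 14.4, 12.4 and 18.6 CPM in WT and at 2.21, 4.37 and 3.23 CPM in the knockout. Its log2 fold change of -2.19 ± 0.24 was the largest fall in the group, and 21.6% of the WT level remained. Tdrd12, a Tudor-domain helicase (chr7:35469098-35537745), was at 47.2, 44.6 and 43.1 CPM in WT and at 11.2, 13.0 and 7.62 CPM in the knockout. The WT libraries were close together and far above every knockout library, with a log2 fold change of -2.08 ± 0.16. Fkbp6 has 2 E-boxes before its start and Tdrd12 neither word, in the sequences printed above. Whether the words bear on the falls was not tested.

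Gtsf1, a zinc-finger cofactor of PIWI proteins, was at 3.06, 2.48 and 3.45 CPM in WT and 0.553, 1.22 and 1.21 CPM in the knockout. The genotypes were apart at this low level, with a log2 fold change of -1.57 ± 0.37; without WT C the call was lost. Tdrd5, a Tudor-domain gene of spermatids on chromosome 1, was at 12.8, 13.5 and 11.4 CPM in WT and at 7.19, 6.38 and 4.49 CPM in the knockout. Its log2 fold change was -1.06 ± 0.20, and -0.74 and still called with the chromosome's median removed. Mael, the gene for maelstrom, a protein of the nuage where piRNAs are made, lies on chromosome 1 as well. It was at 21.9, 20.1 and 24.2 CPM in WT and at 13.4, 11.1 and 14.5 CPM in the knockout, so the genotypes did not overlap. Its log2 fold change was -0.76 ± 0.14, and -0.44 and no longer called with the chromosome's median removed.

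Piwil2, the PIWI protein MILI, which binds piRNAs in the cytoplasm, was the 1 gene of the group called higher. It was at 55.2, 48.9 and 61.3 CPM in WT and at 67.8, 71.8 and 72.7 CPM in the knockout, with a log2 fold change of 0.36 ± 0.10. The genotypes were apart by a narrow gap. It lies on chromosome 14, and with that chromosome's median removed the direction turned, to -0.17, and did not pass. The call was also lost without WT A, WT B, knockout B or knockout C. Piwil4, the nuclear PIWI protein of fetal male germ cells, had a log2 fold change of -0.15 that did not pass.

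Ddx4, the mouse Vasa helicase and a standard germ cell marker, was at 60.6, 63.2 and 59.7 CPM in WT and 68.9, 58.1 and 62.7 CPM in the knockout. The values interleave, with a log2 fold change of 0.05 ± 0.10. Mov10l1, the helicase that starts piRNA processing, was at 32.5, 30.6 and 37.6 CPM in WT and 36.6, 33.9 and 40.8 CPM in the knockout, again overlapping (0.14 ± 0.12 on the log2 scale). Stk31, a Tudor-domain kinase-like gene, was at 27.5, 29.4 and 36.5 CPM in WT and 22.9, 21.6 and 26.7 CPM in the knockout. Its libraries were apart, but the log2 fold change of -0.39 ± 0.14 did not pass; with scaling by library totals it was -0.42 and passed.

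The other Tudor-domain genes were low and did not pass. Tdrd1, which anchors PIWI proteins in the nuage, had a log2 fold change of -0.61 ± 0.22, and passed with no filter (-0.58) and without knockout C (-0.81). Tdrd6, Tdrd7, Tdrd9 and Tdrkh had log2 fold changes of -0.63, 0.23, -0.48 and -0.27, with WT levels from 0.160 (Tdrd6) to 2.57 (Tdrkh) CPM per kilobase of exon. Tdrkh shares transcript sequence with the overlapping gene Oaz3, so its counts are uncertain. Tex15, which directs DNA methylation to transposons together with Piwil4, was at 44.0, 46.9 and 45.9 CPM in WT and 37.4, 36.4 and 42.1 CPM in the knockout. Those libraries did not overlap, and its log2 fold change of -0.24 ± 0.10 did not pass. Asz1, a mitochondrial-membrane protein of the nuage, had 14, 6 and 4 counts in WT and 2 in each knockout library and was not tested.

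**Figure D3:**
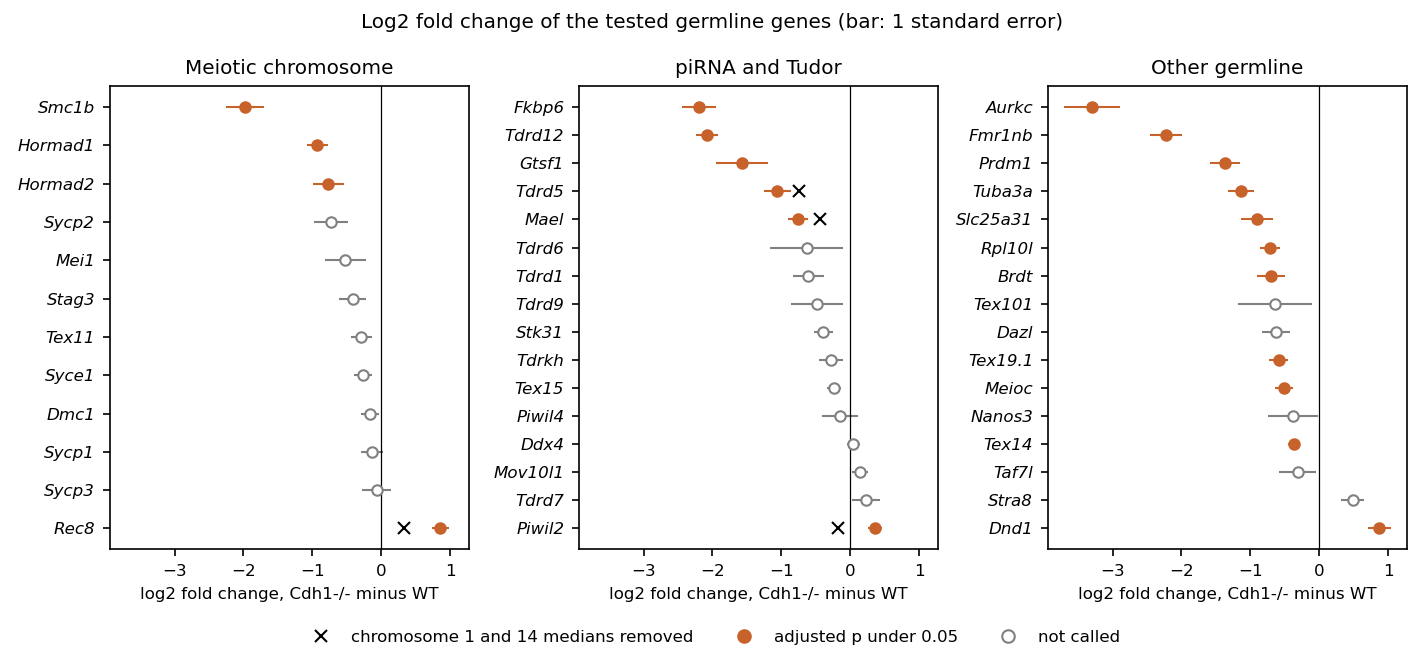
Log2 fold change (Cdh1-/- minus WT, horizontal axis) of the 44 tested germline genes in 3 panels by group, with bars of 1 standard error; filled orange points passed an adjusted p of 0.05, open grey points did not, and crosses give the genes on chromosomes 1 and 14 after their chromosome's median was removed. Aurkc (-3.30), Fmr1nb, Fkbp6 and Tdrd12 lie farthest left, and the cross of Piwil2 lies on the other side of 0 from its point.

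In the other germline group, 10 of 17 genes were called lower, 1 was called higher and 5 were tested and not called. Of those tested, 62.5% were called lower and 6.25% higher, beside 5.71% and 7.60% of all tested genes. The list was chosen on this contrast, so the groups are not ranked by these shares. The median log2 fold change was -0.63 over 16 tested genes. The lower genes include a meiotic kinase, a cancer/testis antigen, a testis tubulin, a mitochondrial carrier, a ribosomal retrogene and the germ cell specifier Prdm1. Stra8, the most abundant gene on the list, did not pass. The summed level of the group was 451 to 563 CPM in WT and 408 to 463 CPM in the knockout, which overlap.

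Aurkc, the Aurora kinase of meiotic cells (chr7:6995300-7003091), had the largest fall of all 44 tested germline genes. It was at 4.86, 5.61 and 6.35 CPM in WT and at 0.166, 0.874 and 0.605 CPM in the knockout, where knockout A was under the detection floor. The log2 fold change was -3.30 ± 0.40, and 9.78% of the WT level remained. Transcripts of 9 other genes are at least 95% identical to Aurkc over at least 200 bases, Gm12463 at 99.2% over 849 bases among them, so its reads may be split. Fmr1nb, an X-linked cancer/testis antigen, was at 8.19, 9.19 and 7.35 CPM in WT and at 1.66, 1.66 and 1.97 CPM in the knockout. The spread within each genotype was small beside the gap, and the log2 fold change was -2.22 ± 0.24.

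Prdm1, the gene for BLIMP1, which specifies primordial germ cells, was at 9.72, 8.59 and 9.10 CPM in WT and at 4.42, 2.80 and 3.48 CPM in the knockout. With a log2 fold change of -1.36 ± 0.22, 39.0% of the WT level remained. Dnd1, an RNA-binding protein that keeps germ cells alive, was higher in the knockout: 6.93, 8.59 and 8.25 CPM in WT beside 14.7, 13.2 and 15.7 CPM. Every knockout library was above every WT library, with a log2 fold change of 0.87 ± 0.16, and it was the 1 gene called higher that lies outside chromosome 14. A pseudogene, Dnd1-ps, is 96.5% identical to it over 346 bases, and 9.51% of its exon bases lie under a gene on the opposite strand. Nanos3, another primordial germ cell gene, was low, at 2.84 CPM per kilobase in WT, and its log2 fold change of -0.38 did not pass.

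Tuba3a, a testis alpha-tubulin, was at 12.9, 11.4 and 12.1 CPM in WT and at 4.59, 5.15 and 6.86 CPM in the knockout, with a log2 fold change of -1.13 ± 0.19. The genotypes were well apart. Its near copy Tuba3b (96.5% identical over 1447 bases) was at 0.360, 1.01 and 1.20 CPM in WT and at or under the floor in every knockout library, at least 2.87-fold lower, and was not tested; reads of the 2 copies may be split. Slc25a31, the testis form of the mitochondrial ADP/ATP carrier, was at 6.21, 6.26 and 6.55 CPM in WT and at 4.09, 2.71 and 3.43 CPM in the knockout. The WT libraries agree within 0.184 CPM (SD), and the log2 fold change was -0.90 ± 0.23; the call was lost when any library other than knockout A was left out. Rpl10l, the testis retrogene of the ribosomal protein Rpl10, was at 20.4, 19.4 and 25.4 CPM in WT and at 11.7, 13.2 and 14.8 CPM in the knockout. It had a log2 fold change of -0.71 ± 0.15 with no overlap, and a transcript of Gm14460 is 97.3% identical to it over 639 bases.

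Tex14, which keeps germ cells joined by intercellular bridges, was at 118, 105 and 114 CPM in WT and at 89.3, 90.9 and 80.6 CPM in the knockout. It had the smallest fall that was called, -0.37 ± 0.09 on the log2 scale, and the call was lost without WT A, WT C or knockout C. Meioc, which holds cells in meiotic prophase, was at 76.5, 82.6 and 68.6 CPM in WT and at 64.3, 43.2 and 52.7 CPM in the knockout. The lowest WT and the highest knockout library were close, with a log2 fold change of -0.51 ± 0.13; the call was lost without WT A, WT B, knockout B or knockout C. Tex19.1, a gene of germ cells and placenta that restrains transposons, was at 40.7, 30.4 and 41.4 CPM in WT and at 24.5, 22.4 and 28.2 CPM in the knockout. The fall of 0.59 on the log2 scale (SE 0.14) was no longer called without WT A, WT C or knockout B. Brdt, the testis bromodomain protein, was at 9.05, 7.43 and 9.80 CPM in WT and at 6.52, 4.94 and 4.79 CPM in the knockout. Its log2 fold change was -0.70 ± 0.21, and the call was lost without WT A, WT C, knockout B or knockout C.

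Stra8 was at 107, 124 and 200 CPM in WT and at 207, 184 and 213 CPM in the knockout. WT C lay among the knockout libraries and apart from WT A and B, and the log2 fold change of 0.49 ± 0.17 did not pass in edgeR's test. It passed in limma-voom (0.54) and with no filter (0.51), and without WT C at 0.81. Dazl, an RNA-binding protein needed for germ cell development, was at 21.6, 19.097 and 27.8 CPM in WT and at 10.8, 12.9 and 20.5 CPM in the knockout. Knockout C reached into the WT range, and the log2 fold change of -0.63 ± 0.21 did not pass in edgeR's test. It passed at much the same size in DESeq2, in limma-voom, with scaling by library totals and with no filter (-0.60 to -0.67), and without knockout C at -0.93. Taf7l, a germ cell form of a general transcription factor subunit, was at 11.9, 10.6 and 20.5 CPM in WT and at 12.4, 7.38 and 14.9 CPM in the knockout. These overlap widely (-0.31 ± 0.26 on the log2 scale). Tex101, a sperm surface gene, was under 2 CPM in every library and had a log2 fold change of -0.64 that did not pass.

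Germline genes that are not on the list were read from 3 further lists of 79 genes in the table, of which 63 were tested: 16 were called lower (25.4%, beside 5.71% of all tested genes), 3 higher (4.76%, beside 7.60%) and 44 were not called. Their median log2 fold change was -0.38. These lists too were chosen with earlier results of these data known. Nothing is therefore read from these shares or from the counts of each list below. The direction of the calls was mostly down in the meiosis and germ cell lists and mixed in the piRNA list. The p-values that follow are from edgeR's quasi-likelihood test with Benjamini-Hochberg adjustment over all tested genes.

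Among 32 other meiosis genes, 28 were tested, 6 were called lower and 0 higher, with a median log2 fold change of -0.42. At an unadjusted p under 0.05 the edgeR test had 13 lower and 0 higher, beside 2178 and 2444 of all 17325 tested genes. DESeq2 called 8 lower and 0 higher at an adjusted p under 0.05, where 2574 of all genes were called in either direction. The largest called fall was in Mcmdc2, a recombination gene on chromosome 1, from 5.61 ± 1.66 to 1.51 ± 0.346 CPM (SD, n = 3; log2 fold change -1.89, adjusted p 0.000904 by edgeR). Majin and Terb2 tether telomeres to the nuclear envelope in meiosis. Majin fell from 5.89 ± 0.287 to 2.45 ± 0.522 CPM (adjusted p 0.00339 by edgeR), and Terb2 from 3.54 ± 0.948 to 1.31 ± 0.446 CPM (adjusted p 0.0136 by edgeR). Hfm1, a crossover helicase, fell from 10.9 ± 1.54 to 4.90 ± 0.277 CPM (adjusted p 0.000863 by edgeR). Tesmin, a testis metallothionein-like gene, fell from 5.60 ± 1.82 to 2.72 ± 0.695 CPM (adjusted p 0.0341 by edgeR). The calls of Terb2 and Tesmin were each lost without WT A, WT B, knockout B or knockout C.

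Among 15 other piRNA pathway genes, 13 were tested, 2 were called lower and 1 higher, and the median log2 fold change was -0.01, as over all tested genes. Tex19.2, the paralog of Tex19.1, fell from 1.82 ± 0.433 to 0.552 ± 0.148 CPM (adjusted p 0.017 by edgeR), a call lost without WT B, WT C or knockout C. Exd1, a partner of Tdrd12 in piRNA production, fell from 6.09 ± 0.221 to 3.24 ± 0.383 CPM (adjusted p 0.0153 by edgeR), a call lost without WT A or knockout C. Tdrd3, on chromosome 14, rose from 19.9 ± 1.78 to 31.4 ± 5.38 CPM (log2 fold change 0.66, adjusted p 0.00534 by edgeR); with the chromosome's median removed its log2 fold change was 0.13 and did not pass. Nanos2, a gene of male germ cells, had no count in any library.

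Among 32 other germ cell genes, 22 were tested, 8 were called lower and 2 higher, with a median log2 fold change of -0.55, the same with Ldhc and Tktl2 set at their bounds. Ldhc, the testis lactate dehydrogenase, was at 0.973 ± 0.166 CPM in WT and at or under the floor in every knockout library, at least 3.25-fold lower (adjusted p 0.00258 by edgeR). Tktl2, a transketolase-like retrogene, was at 0.930 ± 0.141 CPM in WT and at or under the floor in every knockout library, at least 3.11-fold lower (adjusted p 0.0188 by edgeR, lost when any WT library or knockout B was left out). Rhox13, an X-linked homeobox gene, fell from 5.14 ± 1.66 to 1.45 ± 0.323 CPM (adjusted p 0.00156 by edgeR). Boll, a relative of Dazl on chromosome 1, fell from 2.88 ± 0.580 to 0.896 ± 0.105 CPM (adjusted p 0.00471 by edgeR). Dppa3, a marker of primordial germ cells and of naive stem cells, fell by 1.43 on the log2 scale (adjusted p 0.00178 by edgeR). The 2 genes of this list called higher are named here after their values were seen. Ifitm3, another marker of primordial germ cells, rose from 30.7 ± 3.39 to 70.5 ± 15.4 CPM (adjusted p 8.1e-05 by edgeR), and Gfra1, a receptor of spermatogonial stem cells, from 2.68 ± 0.425 to 5.44 ± 0.957 CPM (adjusted p 0.0162 by edgeR). Prdm14, a further primordial germ cell gene, had a log2 fold change of 0.26 that did not pass. The sperm and egg genes Bmp15, Pgk2, Magea4 and Rbmy had no count in any library, and Zp2 and Oosp1 were at or under the floor in all of them, so these 6 genes were not detectable at this depth.

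**Figure D4:**
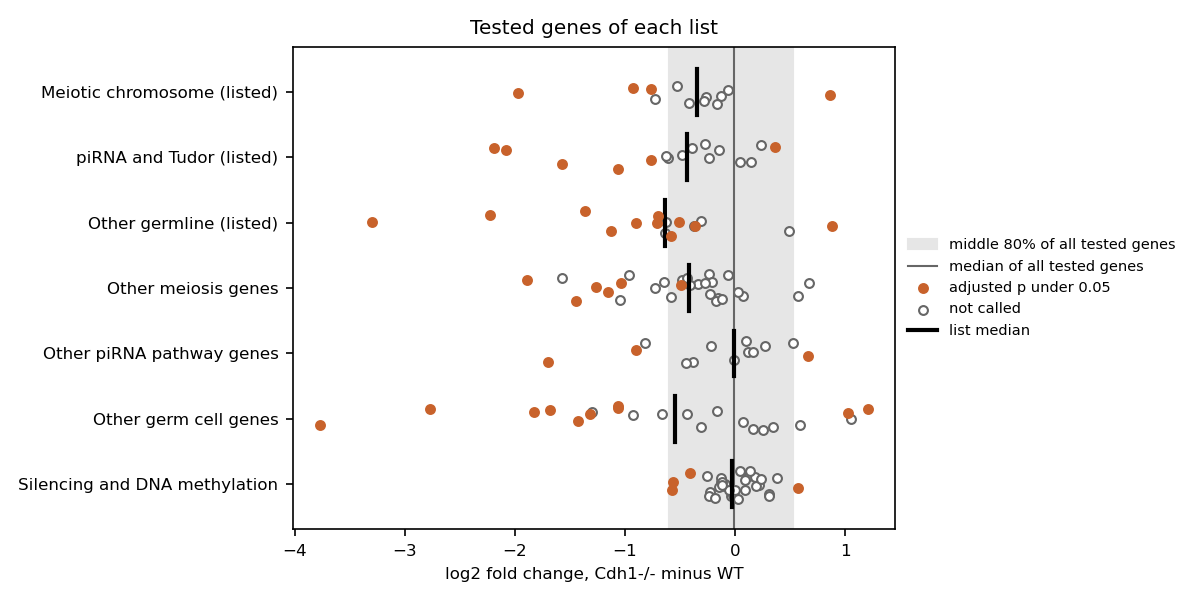
Log2 fold change (Cdh1-/- minus WT, horizontal axis) of each tested gene, by list; filled orange points passed an adjusted p of 0.05, black bars are list medians, the grey line is the median and the grey band the middle 80% of all tested genes. The medians of 5 of the 6 germline lists lie left of the line, between -0.35 and -0.63, and those of the other piRNA genes (-0.01) and of the silencing and DNA methylation genes (-0.03) lie on it; the points of Ldhc and Tktl2, in the other germ cell list, are fitted values, since their knockout libraries are at or under the floor.

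A further list held 32 genes of silencing complexes and of DNA methylation, the Tet enzymes that oxidise methylated cytosine among them, and all 32 were tested. Of these, 3 were called lower and 1 higher, beside 5.71% and 7.60% of all tested genes, and the median log2 fold change was -0.03. The share called, 12.5%, was near the 13.3% of all tested genes. Dnmt3a, a de novo DNA methyltransferase, was at 215, 201 and 222 CPM in WT and at 121, 149 and 158 CPM in the knockout (-0.57 ± 0.10 on the log2 scale, adjusted p 0.00147 by edgeR). Dnmt3b, the other de novo enzyme, was at 99.9, 95.4 and 90.7 CPM in WT and at 70.9, 72.4 and 72.4 CPM in the knockout (-0.41 ± 0.09, adjusted p 0.00511 by edgeR). Every knockout library was below every WT library for both enzymes. Their cofactor Dnmt3l was at 132, 99.2 and 139 CPM in WT and at 66.8, 77.1 and 106 CPM in the knockout, which overlap (-0.57 ± 0.15, adjusted p 0.0232 by edgeR). Tet2, which acts against methylation and not as a silencer, was higher, at 269, 278 and 249 CPM in WT and at 271, 476 and 436 CPM in the knockout (0.57 ± 0.15, adjusted p 0.0216 by edgeR). Knockout A was at the WT level for Tet2 and apart from the other two. The number of called genes on this list fell to 2 without WT A or knockout B and rose to 8 without knockout A. The call of Dnmt3l was lost without WT A, WT C or knockout B, and that of Tet2 when any library other than knockout A was left out.

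The maintenance methyltransferase Dnmt1 and its partner Uhrf1 did not pass, with log2 fold changes of -0.05 (adjusted p 0.706 by edgeR) and 0.04 (0.798). The DNA-binding members of the variant Polycomb complex did not pass either. E2f6 was at -0.04 on the log2 scale (adjusted p 0.88 by edgeR) and Mga at -0.23 (0.131). Their partners L3mbtl2 and Pcgf6 had -0.13 (adjusted p 0.479 by edgeR) and -0.24 (0.085), and the histone methyltransferase Setdb1 had 0.13 (0.337). Mga passed without WT C, where it was at -0.31, and Pcgf6 passed with scaling by library totals (-0.28) and with a filter at a mean of 50 counts (-0.26).

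Markers of other cell types were read beside these results, and their part in the germline changes was not tested. All 10 pluripotency genes checked were tested, so the defining markers of the labelled cell type were present. They summed to 4981 to 5460 CPM in WT and 5799 to 7135 CPM in the knockout, with no overlap. Of the 10, 3 were called higher and 0 lower, and 9 had a log2 fold change above 0. Of 10 primitive endoderm markers, 9 were tested and all 9 were called higher; they summed to 285 to 394 CPM in WT and 820 to 1516 CPM in the knockout, with Afp at the floor. Genes of the two-cell-like state, a rare state of these cultures, summed to 33.3 to 78.7 CPM in WT and 13.7 to 42.3 CPM in the knockout, which overlap. All 9 tested had a log2 fold change below 0 (51.1% of all tested genes), with a median of -0.69. In edgeR's main test 0 passed, and 3 were lower at an unadjusted p under 0.05 (2178 of all 17325 tested genes). The number called lower was 0 in limma-voom, 1 in DESeq2, 4 with no filter and 4 with a block for the replicate letter. Fibroblast markers, which would show feeder cells, summed to 53.1 to 64.1 CPM in WT and 67.1 to 88.2 CPM in the knockout. Among the 12 fibroblast markers Pdgfra, also an endoderm marker, and Fbn1 were called higher, Col1a1 was called lower, S100a4 and Fap had no count in any library and Lum was at the floor. Markers of Sertoli cells and gonad soma summed to 26.5 to 36.1 CPM in WT and 53.6 to 73.9 CPM in the knockout; Gata4, also an endoderm marker, and Foxl2 were called higher, and Fshr, Nr5a1 and Cyp17a1 were at 0 or at the floor.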

How the data were processed

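Total RNA was extracted with TRIzol and made into strand-specific libraries with a directional kit, per the labels' protocols. Per the submitters' processing notes, reads were handled with cutadapt 2.10, STAR 2.7.5b and featureCounts 2.0.1 on GRCm38; the strand setting and the counting of mates are not given in the sources used here. The authors deposited unnormalized whole-number counts for 55401 genes and 6 libraries of 18020719 to 23381942 counts. The detection floor covers counting error only; SDs and SEs cover the spread between libraries.

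Of these genes, 54349 matched GENCODE M21 by identifier and version and 55141 had a symbol. The main test was edgeR 4.0.16 (R 4.3.3), quasi-likelihood, with TMM scaling, edgeR's filter on low counts (minimum 10), genotype as the only term and Benjamini-Hochberg adjustment over 17325 genes; calls were made at an adjusted p below 0.05. The SE of a log2 fold change was its size divided by the square root of the test statistic. Alternatives were DESeq2 1.42.0, limma-voom (limma 3.58.1), other scalings and filters, a threshold of 0.01, counts divided by 2, removal of the medians of chromosomes 1 and 14, a block for the replicate letter and leaving out each library. The scripts were tested on simulated data. Folds against a genotype at or under 6 counts in every library were taken against that floor. They are the other genotype's mean CPM over the mean floor of that genotype's libraries.

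The listed genes and all other gene and marker lists were chosen with earlier results of these data known. Values in every library are given for each called gene and, in each group, for the 3 genes not called with the highest level per exon length; for some others they were added after their values were seen. From the other lists, up to 5 called genes with the largest changes are named, with 9 silencing and DNA methylation genes whatever their call. Tdrd15 and Dux did not match the table and were not used. Near copies were transcripts at least 95% identical over at least 200 bases.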

Additional observations from a re-analysis of the deposited data

How the results depend on the processing

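Of the 18 germline genes called lower, 10 kept the call in all 16 alternatives (Smc1b, Hormad1, Fkbp6, Tdrd12, Tdrd5, Aurkc, Fmr1nb, Prdm1, Tuba3a and Rpl10l), and 11, these and Mael, kept it whichever of the 6 libraries was left out. The number called lower was 11 at an adjusted p under 0.01 and ranged from 12 to 20 when 1 library was left out; the number called higher ranged from 2 to 4. With the medians of chromosomes 1 and 14 removed, 1 gene was called higher (Dnd1), and Piwil2 turned to -0.17, since its chromosome's median was subtracted. Genes called over the whole table numbered 1242 at an adjusted p under 0.01, 1374 without WT A and 1470 without WT B. With the medians of chromosomes 1 and 14 removed 1705 were called. Without knockout A there were 2784, and with no filter on low counts 2799. For the other germline lists together the number was 13 at an adjusted p under 0.01 and ranged from 14 to 26 when 1 library was left out. The list of silencing and DNA methylation genes had 2 calls at an adjusted p under 0.01 and 2 to 8 when a library was left out. The log2 fold change of Cdh1 stayed between -1.73 and -1.66 in every alternative and in every fit without 1 library. Scaling by library totals moved the median of all genes to -0.04.

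The letters A, B and C are shared by the genotypes. Deviations of same-letter libraries from their group means correlated at 0.14 (A), -0.03 (B) and 0.23 (C). Pairs of different letters ran from -0.25 (WT C with knockout A) to 0.12 (WT B with knockout A). A and C were thus above every pair of different letters, and B was not. These values do not settle whether libraries of a letter were paired, and the main test took no pairing. With the replicate block, 2686 genes were called in all, 23 of the listed genes were lower and 4 higher, 21 were called on the other germline lists and 6 on the list of silencing and DNA methylation genes, and Cdh1 was at -1.70; all 21 calls on the listed genes were kept and 6 were added (Dazl, Stag3, Stk31, Stra8, Sycp2 and Tdrd1). Depth limits Spo11, Asz1 and Tuba3b, which were too low for the main test. With no filter on low counts, Tuba3b was called lower.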
